A study of Mus musculus with 2 samples.

Results

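Slits, netrin-1 and draxin are secreted proteins that steer growing axons and migrating neurons, and each acts through receptors on the cell surface. Slits bind Robo receptors and repel. Netrin-1 attracts through Dcc and repels through Unc5 receptors, alone or together with Dcc, while draxin binds both Dcc and netrin-1 and is needed for forebrain commissures in the mouse. In the developing cortex Robo receptors also act in progenitors, and Unc5d is known as a mark of cells of the subventricular zone on their way to the upper layers.

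Here, the expression of 10 genes of this system was examined in siPhf6 and siCtl cortical progenitors. These were the ligands Slit1, Slit2, Slit3, Ntn1 and Draxin and the receptors Robo1, Robo2, Dcc, Unc5c and Unc5d, chosen by name and matched by gene ID to 10 of the 47643 gene rows of the count tables. Of the 10, 9 had at least 150 reads in at least 1 library, which is the filter of the study and kept 10130 genes. Slit3 did not, and it is described apart.

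Both groups were cortical cultures of wild-type mouse embryos at E14, and both samples are labelled male. The siPhf6 group was electroporated with siRNAs against Phf6, a chromatin-associated regulator of transcription, and the siCtl group with non-targeting siRNA, and both were sequenced after 5 days in culture. The knockdown is transient, and the study states 3 samples a group. The counts analysed here are of a single library for each group, and it is not stated whether that holds 1 culture or several. There is therefore no replicate check of any difference below, and each comparison is of these 2 libraries.

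The libraries held 10561757 reads in genes for siPhf6 and 12155311 for siCtl. Phf6 itself had 310 reads in siPhf6 and 1420 in siCtl, which is 25.2% of the siCtl level. The label of progenitors was checked against markers fixed in lists. Of 10 radial glia markers 6 were kept, among them Nes with 1135 reads in siPhf6 and 764 in siCtl, but Pax6 had 120 and 121 reads and Eomes, the marker of intermediate progenitors, 20 and 9. Of 7 markers of deep-layer neurons 5 were kept, with a summed level of 424 reads per 1000000 gene reads (RPM) in siPhf6 and 414 in siCtl, so both libraries also carried RNA of neurons. In bulk RNA, fewer cells of a type and less RNA per cell cannot be told apart.

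Levels are given in RPM. A log2 ratio compares siPhf6 with siCtl after 1 read was added to each count, and its 95% interval is the exact Clopper-Pearson interval, which covers counting error alone (the reads carry no molecular identifiers, so they do not count separate molecules). A gene is called past the fold when it differed by at least 1.5-fold and its interval left out 0. Over all 10130 kept genes, 4.18% were past the fold higher in siPhf6 and 3.23% lower, 7.4% in either direction. The median log2 ratio of these genes was 0.01, with quartiles of -0.16 and 0.16.

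Of the 9 kept members, Ntn1 was past the fold and higher in siPhf6, and Draxin was past the fold and lower. The other 7 were not past it. These counts of 1 and 1 of 9 stand beside the shares of 4.18% and 3.23% of all kept genes, and the members were chosen with earlier results of these data known. Both genes passed the filter only through the library where they were higher, Ntn1 with 234 reads in siPhf6 and 148 in siCtl and Draxin with 107 and 353, so these counts carry no support of their own. The median log2 ratio of the 9 was 0.11.

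**Figure D1:**
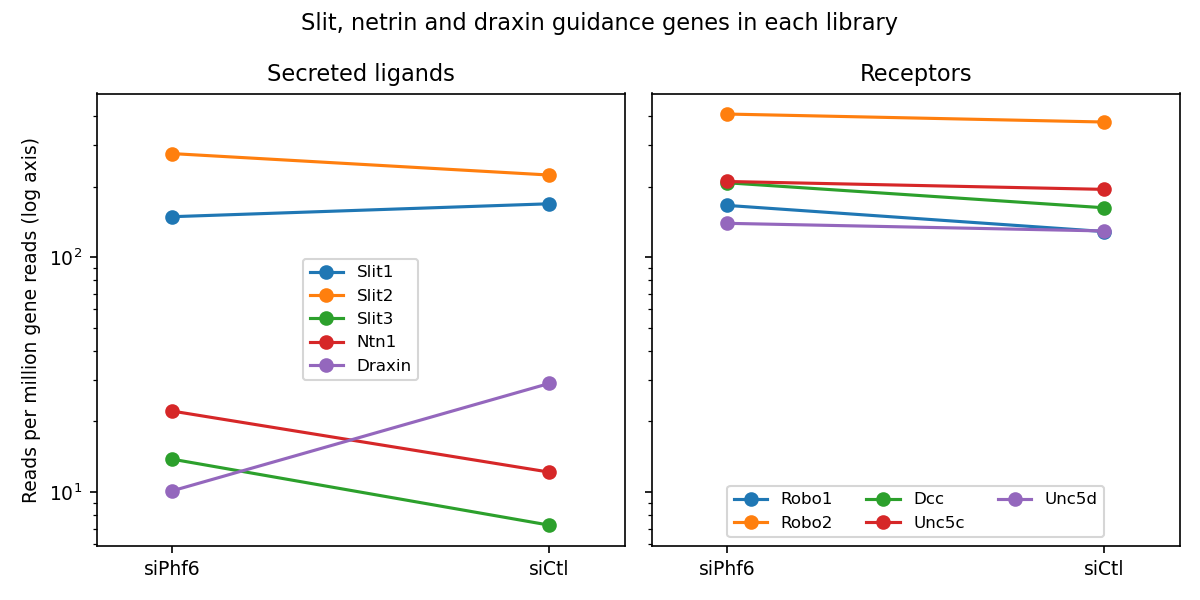
RPM (vertical log axis) of the 5 ligands (left) and the 5 receptors (right) in the siPhf6 and siCtl libraries, 1 point per gene and library joined by a line. The lines of Draxin and Ntn1 cross, with Draxin at 10.1 RPM in siPhf6 and 29.0 in siCtl and Ntn1 at 22.2 and 12.2 RPM, and no receptor differed by 1.5-fold.

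Draxin, the secreted antagonist of netrin-Dcc signalling, had the largest difference of the 10. It had 107 reads (10.1 RPM) in siPhf6, against 353 reads (29.0 RPM) in siCtl. The siPhf6 level was thus 35.1% of that in siCtl. The log2 ratio was -1.51 (95% counting interval -1.85 to -1.20), at rank 9 from the lowest of the 10130 kept genes. Draxin occupies bases 148098437 to 148130698 of mm10 chromosome 4 (minus strand), has 1 transcript in GENCODE M21, and no other annotated gene overlaps its exons there.

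The upstream sequence of Draxin is shown because it had the largest difference, beside that of Slit2, a ligand on the other side of 0. Both are read 5′ to 3′ on the gene's strand and end just before the annotated transcript start, and capitals mark GGGCGG, its reverse complement CCGCCC, and TATAAA.
Draxin, chr4:148130699-148130948, minus strand: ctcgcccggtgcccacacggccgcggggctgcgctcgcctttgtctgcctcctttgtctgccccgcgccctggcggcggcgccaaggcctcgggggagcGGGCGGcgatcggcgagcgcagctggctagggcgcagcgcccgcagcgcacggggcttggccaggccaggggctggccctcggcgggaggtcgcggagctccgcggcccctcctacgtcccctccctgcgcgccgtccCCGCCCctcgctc
Slit2, chr5:47982905-47983137, plus strand: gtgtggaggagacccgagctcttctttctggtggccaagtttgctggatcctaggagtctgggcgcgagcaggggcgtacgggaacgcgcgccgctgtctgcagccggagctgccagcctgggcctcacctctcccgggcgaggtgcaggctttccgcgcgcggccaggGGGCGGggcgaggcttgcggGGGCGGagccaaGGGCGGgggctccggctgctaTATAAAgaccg
The Draxin stretch is 79.6% G and C and the Slit2 stretch 70.4%, where the median of the 250 bases before the start was 52.4% over all 32851 RefSeq promoters of GRCm38.p6. GGGCGG occurs 2 times in the Draxin stretch and 3 times in that of Slit2, on either strand, and in 32.7% of all promoters. TATAAA occurs in the Slit2 stretch and not in that of Draxin. There it starts at -11 from the GENCODE M21 transcript start, which lies upstream of the RefSeq start. TATAAA occurs in 12.4% of all promoters on either strand. The Slit2 stretch holds 233 bases, where the shares of all promoters are over 250. A run of 5 CA dinucleotides was also searched on both strands, and it was in none of the 8 promoter windows of the 6 members with an entry, and in 1.43% of all promoters. Slit1, Ntn1, Dcc and Unc5d have no entry.

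Ntn1, which encodes netrin-1, differed the other way. It had 234 reads (22.2 RPM) in siPhf6, against 148 reads (12.2 RPM) in siCtl. The siPhf6 value was 182% of that in siCtl, a log2 ratio of 0.86 (0.56 to 1.17), at rank 170 from the highest. Ntn1 occupies bases 68209364 to 68400823 of chromosome 11, also on the minus strand. In siCtl there were 2.39 reads of Draxin for each of Ntn1, and in siPhf6 0.457, so their order by reads was reversed. This ratio changed to 0.192 of its siCtl value (exact conditional 95% interval 0.141 to 0.261), and it does not depend on how the libraries are scaled. It was chosen after the values of both genes had been seen.

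The slits, large secreted proteins with leucine-rich repeats, did not differ in 1 direction. Slit2 had 2923 reads (277 RPM) in siPhf6 and 2726 (224 RPM) in siCtl, a log2 ratio of 0.30 (0.23 to 0.38). Slit1 had 1574 reads (149 RPM) in siPhf6 and 2056 (169 RPM) in siCtl, a ratio of -0.18 (-0.28 to -0.09). Both intervals leave out 0, but neither gene reached 1.5-fold. The reads of Slit1 per read of Slit2 were 0.538 in siPhf6 and 0.754 in siCtl, a ratio of 0.714 (0.656 to 0.777) between the libraries, also computed after the values were seen.

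Slit3 had 146 reads (13.8 RPM) in siPhf6 and 88 (7.24 RPM) in siCtl, so its higher library fell just under the filter of 150 reads. The log2 ratio was 0.93 (0.54 to 1.33), and with a filter of 10 reads it was past the fold. With that filter 7.1% of 16220 genes were past the fold higher and 4.46% lower. Ntn1, with 234 and 148 reads, was the kept member nearest to the filter on reads. Slit1 lies on chromosome 19 from 41600257 to 41743665, Slit2 on chromosome 5 from 47983138 to 48307733 and Slit3 on chromosome 11 from 35121224 to 35708507.

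All 5 receptors had log2 ratios above 0 and none was past the fold. The repulsive slit receptors differed in size, with Robo1 at 0.37 (0.27 to 0.47; 1758 reads or 166 RPM in siPhf6, 1566 reads or 129 RPM in siCtl). Robo2 had 4307 reads (408 RPM) in siPhf6 and 4584 (377 RPM) in siCtl, a ratio of 0.11 (0.05 to 0.17). Robo1 thus lay outside the quartiles of all kept genes and Robo2 within them. The reads of Robo1 per read of Robo2 were 0.408 in siPhf6 and 0.342 in siCtl, 1.19 times as many (1.10 to 1.30). In GENCODE M21 the genes lie on chromosome 16, Robo1 (plus strand) at 72308306 to 73046095 and Robo2 (minus strand) at 73891839 to 74411825. RefSeq also has promoter windows of Robo2 beyond that span, at 75092721 to 75093020 and 75447244 to 75447543.

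Dcc, the receptor through which netrin-1 attracts axons, had 2195 reads (208 RPM) in siPhf6 and 1977 (163 RPM) in siCtl. Its log2 ratio was 0.35 (0.27 to 0.44), close to that of Robo1 and outside the quartiles of all kept genes. It spans 1097 kb of chromosome 18, from 71253634 to 72351069, the longest span of the 10 genes in GENCODE M21. The Unc5 receptors, through which netrin-1 repels, had ratios within the quartiles. Unc5c had 2223 reads (210.5 RPM) in siPhf6 and 2368 (195 RPM) in siCtl, a ratio of 0.11 (0.03 to 0.20). Unc5d, which also binds Flrt proteins, had 1475 reads (139.6 RPM) in siPhf6 and 1575 (129.6 RPM) in siCtl, a ratio of 0.11 (0.00 to 0.21). The reads of Unc5d per read of Unc5c were 0.664 in siPhf6 and 0.665 in siCtl, a ratio of 0.998 between the libraries (0.909 to 1.09), another pair added after the values were seen. Unc5c lies on chromosome 3 from 141465216 to 141834924 and Unc5d on chromosome 8 from 28646717 to 29219636. An antisense gene covers 0.617% of the exonic bases of Unc5c, and since the library kit does not mark strand, its reads there cannot be told apart.

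**Figure D2:**
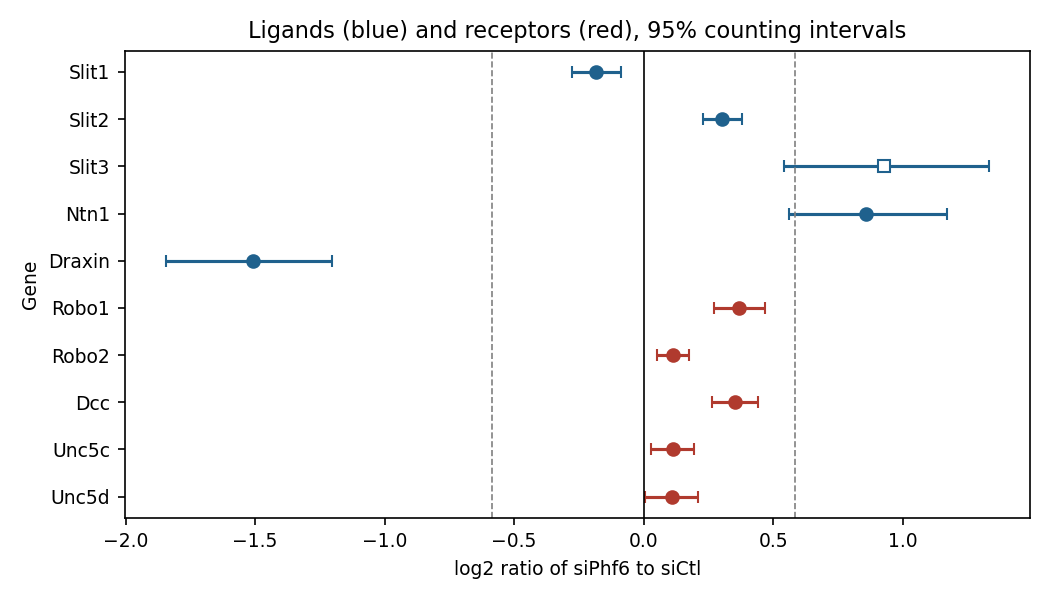
Horizontal axis, siPhf6 over siCtl as a log2 ratio, for each ligand (blue) and receptor (red), with 95% counting intervals as bars and dashed lines at 1.5-fold. Draxin lies far left at -1.51 and Ntn1 at 0.86; the 5 receptors lie between 0.11 and 0.37, and the open square is Slit3, which was under the filter.

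**Figure D3:**
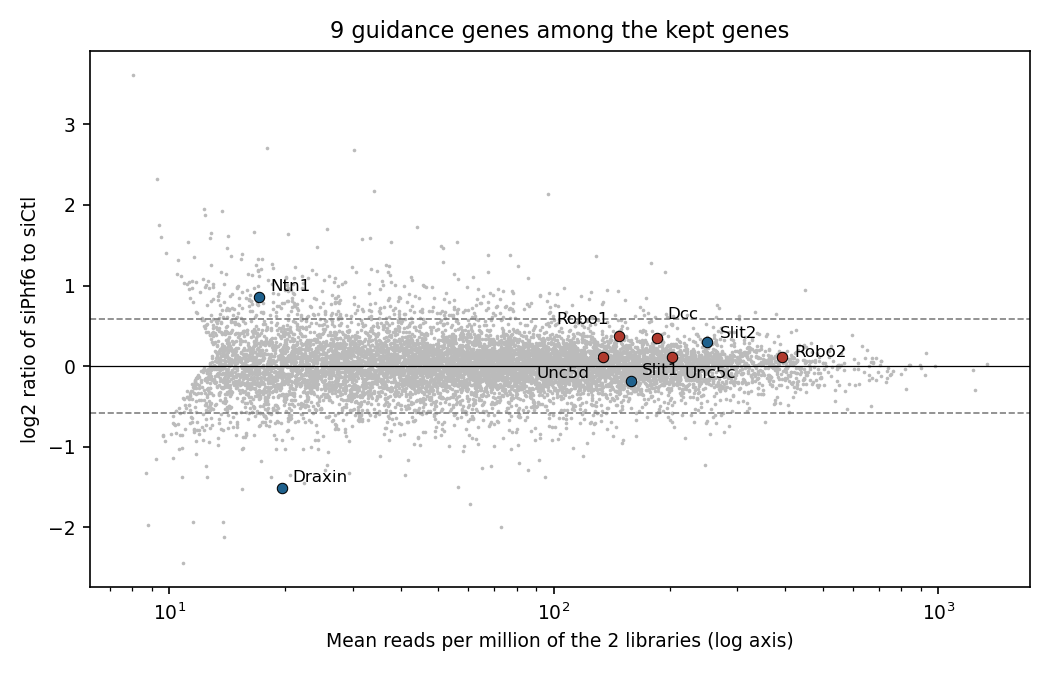
Vertical axis, siPhf6 over siCtl as a log2 ratio, against the mean RPM of the libraries (horizontal log axis) for all 10130 kept genes (grey), with the 9 kept members in blue (ligands) and red (receptors) and dashed lines at 1.5-fold. Draxin and Ntn1 are the members with the fewest reads and lie outside the dashed lines, on opposite sides.

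Counting intervals of all 10 members left out 0, that of Unc5d barely (0.0047 to 0.21). The share of all genes with such an interval was not computed, so this count does not set the members apart. Of the log2 ratios 8 of 10 were above 0, with Slit3, under the filter, among them. Of all kept genes 51.8% had a ratio above 0. The depth is high enough to tell small differences between these libraries from counting error, but it does not give the spread between cultures. Where a coefficient of variation of 0.1 between cultures was assumed and added to the counting error, the intervals of Slit1, Slit2 and all 5 receptors held 0. At 0.2 Draxin was still past the fold (-2.37 to -0.65), and Ntn1 was so by a narrow margin (0.0073 to 1.71). The interval of Unc5d also held 0 with the scaling factors of edgeR or DESeq2.

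Pairing ligands with receptors, the balance of slits and their receptors was close between the libraries while those of Ntn1 and of Draxin with Dcc were not. The slits together had 4643 reads in siPhf6 and 4870 in siCtl, and Robo1 and Robo2 together had 6065 and 6150. This is 0.766 slit reads per Robo read in siPhf6 and 0.792 in siCtl, a ratio of 0.967 with an interval that holds 1 (0.916 to 1.02). Ntn1 had 0.107 reads per Dcc read in siPhf6 and 0.0749 in siCtl, or 1.42 times as many (1.14 to 1.78).

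Against the repulsive receptors Unc5c and Unc5d the ratio of Ntn1 was 0.0633 in siPhf6 and 0.0375 in siCtl, or 1.69 times as high (1.36 to 2.10). Draxin had 0.0487 reads per Dcc read in siPhf6 and 0.179 in siCtl, a ratio of 0.273 (0.216 to 0.343). The netrin receptors themselves shifted slightly toward Dcc. Unc5c and Unc5d had 1.68 reads per Dcc read in siPhf6 and 1.99 in siCtl, a ratio of 0.845 (0.783 to 0.912). With Neo1 counted beside Dcc this last ratio turned round, to a log2 value of 0.32 (0.24 to 0.41).

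**Figure D4:**
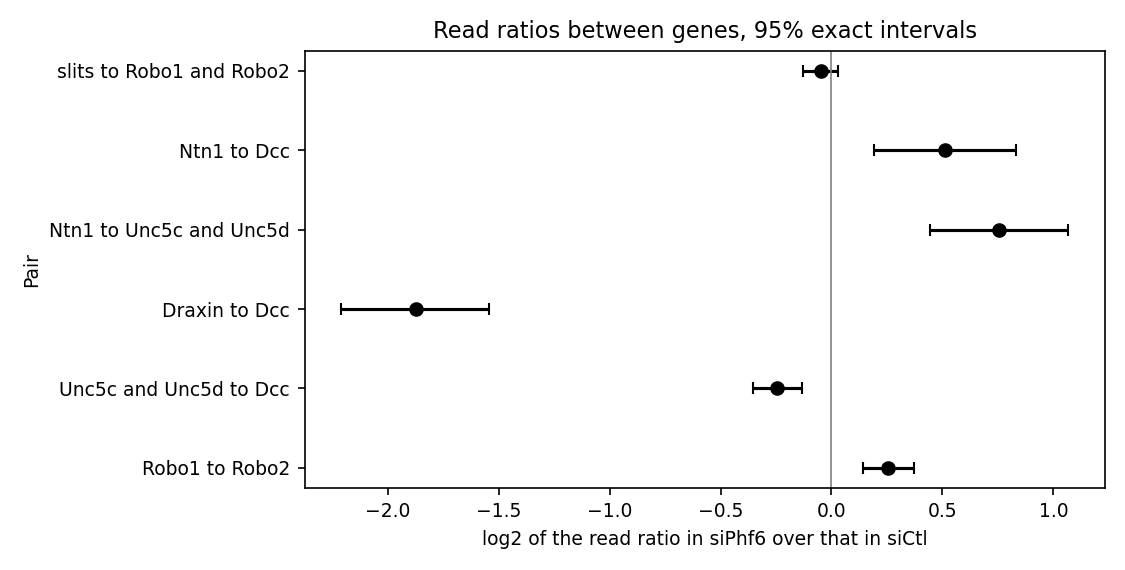
Log2 of the read ratio of each pair in siPhf6 over that in siCtl (horizontal axis), with exact conditional 95% intervals as bars that cover counting error only. The slit to Robo pair lies at -0.05 with an interval across 0; Draxin to Dcc lies at -1.87 and Ntn1 to Dcc at 0.51.

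The read ratios above follow 1 pair across the libraries and do not rank genes by level. For that, levels were taken per length, as RPM divided by kilobases of exon (RPKM), with exon lengths from GENCODE M21. Slit1 stood highest with 25.2 RPKM in siPhf6 and 28.6 in siCtl, followed by Robo2 with 24.0 and 22.2. Their counting intervals overlap in siPhf6 and not in siCtl. Dcc had 15.8 RPKM in siPhf6 and 12.3 in siCtl, and Unc5d 15.1 and 14.1. With this length their order differed between the libraries, with overlapping intervals in siPhf6 only. Unc5c (11.0 and 10.2), Slit2 (10.9 and 8.82) and Robo1 (10.1 and 7.80) came next.

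The 3 genes lowest per length were those with the largest differences. Ntn1 had 3.53 RPKM in siPhf6 and 1.94 in siCtl, and Slit3 2.28 and 1.19. Draxin had 1.95 RPKM in siPhf6, where it was the lowest of the 10 with an interval that overlaps that of Slit3, and 5.58 in siCtl, where it stood above both. Among the slits, Slit1 made up 65.7% of the RPKM in siPhf6 and 74% in siCtl, Slit2 28.4% and 22.9%, and Slit3 5.94% and 3.09%. Robo1 made up 29.6% of the RPKM of Robo1 and Robo2 in siPhf6 and 26% in siCtl. These levels depend on the length used: with the longest transcript in place of all exons Robo2 stood above Slit1 (47.5 against 26.3 RPKM in siPhf6, 43.9 against 29.8 in siCtl), and Slit2 had 27.8 RPKM in siPhf6 and 22.5 in siCtl. Dcc then stood above Unc5d in both libraries (20.1 against 15.1 RPKM in siPhf6, 15.8 against 14.1 in siCtl).

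Outside the 10 members, 50 of 56 listed genes of the pathway were kept, and of these 4 were past the fold lower in siPhf6 and 0 higher, beside 3.23% and 4.18% of all kept genes, with a median log2 ratio of -0.03. When a coefficient of 0.2 between cultures was assumed, as for the members, none of the 4 was past it, and 2 of the 4 were with the exonic length trend subtracted. Of 9 kept other ligands, Flrt3 was past the fold. It is a membrane protein that binds Unc5 receptors and latrophilins, and it had 696 reads (65.9 RPM) in siPhf6 and 1365 (112 RPM) in siCtl, a ratio of -0.77 (-0.90 to -0.64). The netrin-G proteins, which are anchored to the membrane and do not bind Dcc, had ratios of 0.22 (-0.05 to 0.49) for Ntng1 and -0.02 (-0.11 to 0.06) for Ntng2, with intervals that hold 0. Rgma, a ligand of neogenin, had a ratio of 0.30 (0.19 to 0.41).

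Of 12 kept other receptors, Adgrl2, a latrophilin and thus a partner of Flrt proteins, was past the fold with 1633 reads in siPhf6 and 2984 in siCtl (-0.67, -0.75 to -0.58). Neo1, which encodes neogenin, the relative of Dcc, had 3593 reads (340 RPM) in siPhf6 and 5750 (473 RPM) in siCtl. Its ratio was -0.48 (-0.54 to -0.42), opposite in sign to that of Dcc and short of 1.5-fold. Per length it stood at 39.0 RPKM in siPhf6 and 54.3 in siCtl, above Dcc in both. Unc5b had 394 and 322 reads (0.49, 0.28 to 0.71), Unc5a 480 and 558 (-0.01, -0.19 to 0.16), and Dscam, which also binds netrin-1, 1520 and 1863 (-0.09, -0.19 to 0.01).

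Robo3, the receptor of commissural axons that in mammals does not bind slits with high affinity, was under the filter. It had 113 reads (10.7 RPM) in siPhf6 and 31 (2.55 RPM) in siCtl, a ratio of 2.04 (1.48 to 2.69), and with a filter of 10 reads it was past the fold and higher, where 7.1% of genes were. Its share of the Robo reads was small beside the 6065 and 6150 reads of Robo1 and Robo2. Ntn4, a netrin of basement membranes, had 43 and 25 reads and a ratio of 0.96 (0.24 to 1.76), also past the fold with that filter. Ntn5 had no read in either library.

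Among 12 kept partners of Robo receptors, Srgap1 was past the fold with 1801 reads in siPhf6 and 3164 in siCtl (-0.61, -0.69 to -0.53). It encodes a GTPase-activating protein that binds the cytoplasmic part of Robo. The related Srgap2 (-0.25, -0.33 to -0.18) and Srgap3 (-0.29, -0.34 to -0.23) were not past it. The median of the 12 was -0.11. Among 17 kept partners of Dcc and Unc5 receptors, Trim67, a ubiquitin ligase that binds Dcc, was past the fold with 2282 reads in siPhf6 and 3986 in siCtl (-0.60, -0.68 to -0.53). Its relative Trim9, which also binds Dcc, had 2339 and 2023 reads (0.41, 0.33 to 0.50) and was not past it. The median of the 17 was 0.04.

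**Figure D5:**
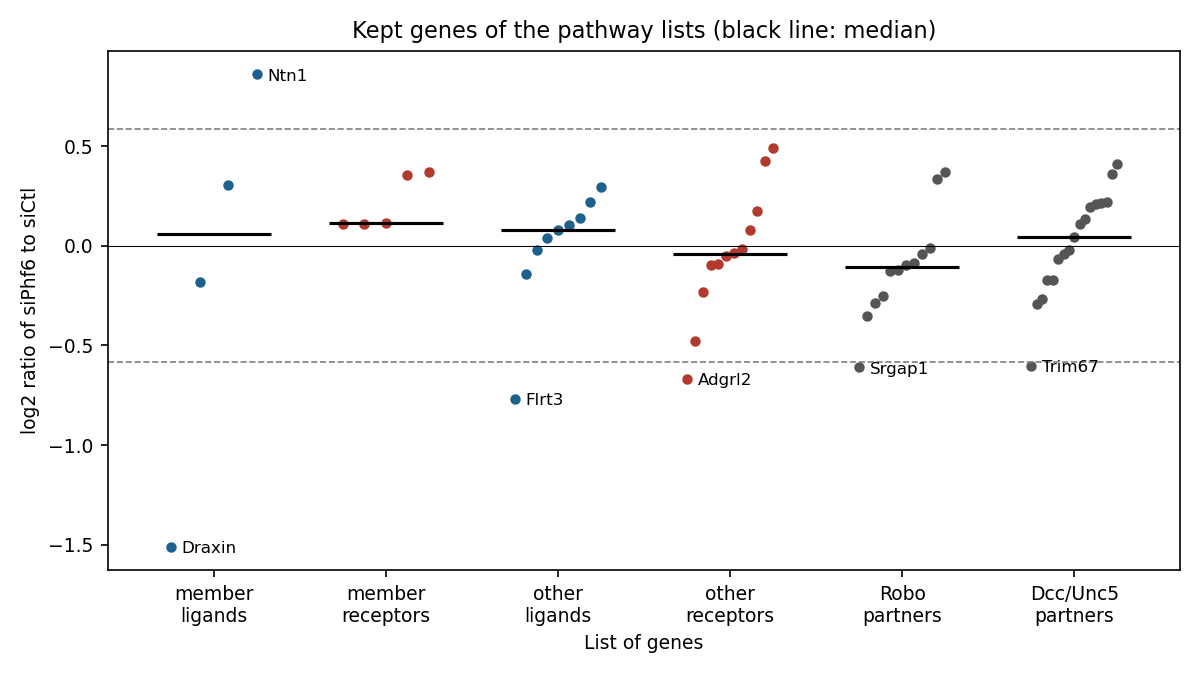
Vertical axis, siPhf6 over siCtl as a log2 ratio, for 6 lists and their kept genes, 1 point per gene in order of its ratio, with black lines at the list medians and dashed lines at 1.5-fold. Genes past the fold are named: Ntn1 above, and Draxin, Flrt3, Adgrl2, Srgap1 and Trim67 below.

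Markers of several cell types moved between the libraries beside these genes. The summed level of 8 markers of Cajal-Retzius cells and cortical hem was 160 RPM in siPhf6 and 291 in siCtl, mostly from Reln (1625 and 3459 reads), while Trp73 had 2 and 5 reads, Lhx5 2 and 10, Lmx1a 0 and 13, and Wnt3a and Wnt8b none. Wnt2b, with 59 and 50 reads, and Lhx1, with 3 and 2, had ratios above 0 and intervals that hold 0. The lower Draxin level stood beside these, and their part in it was not tested. The sum of 6 markers of meningeal fibroblasts was 45.1 RPM in siPhf6 and 21.8 in siCtl, with 1 of 6 kept (Col1a1, 154 and 52 reads). That of 10 radial glia markers was 720 and 554 RPM, that of 8 astrocyte markers 530.5 and 384, and that of 7 markers of the oligodendrocyte lineage 96.3 and 75.4. The astrocyte sum came mostly from Slc1a2 (364 RPM in siPhf6 and 242 in siCtl). Of the kept radial glia, astrocyte and oligodendrocyte markers, 2 of 6, 2 of 6 and 2 of 3 were past the fold and higher. Of all kept genes 4.18% were. Aqp4 (155 and 102 reads) and Olig2 (153 and 79), like Col1a1, passed the filter only through the library where they were higher. These counts thus carry no support of their own. In these lists Sox2 (208 and 280 reads), Gfap (319 and 405), Gja1 (287 and 335) and Mbp (258 and 369) had ratios below 0. Of these, only the interval of Mbp left out 0. The part of the meningeal, radial glia, astrocyte and oligodendrocyte lists in the higher Ntn1, Slit3 and Robo3 levels was not tested. Markers of microglia summed to 5.40 and 4.20 RPM and those of choroid plexus to 0.473 and 0.329, near 0 in both libraries.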

How the data were processed

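Whole-read counts per gene, as deposited, were made by the authors: reads were mapped to mm10 with HISAT2, duplicates removed with samtools and genes counted with HTSeq on GENCODE M9 (versions not given in the sources used here). The submitters' processing notes also name deepTools 3.5.1. The TruSeq RNA v2 kit does not mark strand. Library sizes leave out reads outside genes (24.1% of siPhf6, 25.3% of siCtl) and those HTSeq called ambiguous (2.04% and 1.99%).

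Groups came from the sample labels. Genes with at least 150 reads in a library were kept, 1 read was added, and counts were scaled by the library's gene reads. Intervals are at 95% (scipy 1.17.1). With 1 library per group no model could be fitted and no p-value is given. Symbols, positions and lengths come from GENCODE M21 on GRCm38 (mm10) by ID without version; 10114 of 10130 kept genes matched, and 4 of 10 members have a newer ID version there. Promoters are from RefSeq, GRCm38.p6; 6 of 10 members had an entry.

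The members and lists were chosen with earlier results of these data known. Named were all members, Phf6, up to 4 genes past the fold per list, and a fixed set of relatives (Neo1, Unc5a, Unc5b, Robo3, Ntng1, Ntng2, Rgma, Dscam and the Srgap genes); Ntn4, Ntn5, Nell2, Trim9, Bcl11b and Lhx2 were named after their values were seen. Some genes are not reported here. Ntn3 was not analysed here. Alternatives covered scaling (size factors of DESeq2 1.42.0, TMM factors of edgeR 4.0.16, a total that omits mitochondrial genes and the 50 most abundant ones), reads added (0.5, 5), trends on gene span and exonic length (running median of 501 genes), filters, folds and assumed spread. The script was tested on simulated data.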

Additional observations from a re-analysis of the deposited data

How the results depend on the processing

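With 1 library per group, no replicate could be left out and the spread between cultures is unknown. No paired analysis was possible because each group has 1 library. The log2 ratios of all 10 members kept their sign and stayed within their counting intervals under the 3 other scalings, the 2 other added counts and the 2 length trends, Draxin between -1.52 and -1.47 and Ntn1 between 0.85 and 0.91. Draxin, Ntn1 and Slit3, the last under the filter, stayed past the fold under assumed coefficients of variation of 0.1 and 0.2. The other members could not change side there, because the assumed spread sets the interval and leaves the ratio as it is. Over all kept genes, 1.85% were higher and 0.997% lower past the fold at 0.2.

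The members higher past the fold were 2 with a filter of 10 reads or none (Slit3 is added), 4 at an absolute log2 ratio over 0.25 and 0 at 2-fold, where Draxin was still lower. Of all kept genes 15.5% were higher and 14.7% lower at 0.25, and 1.06% and 0.474% at 2-fold. For the other pathway genes, those higher were 2 with a filter of 10 reads or none and 7 of 50 at 0.25. Those lower were 2 with the exonic length trend subtracted, 0 at a coefficient of 0.2, 0 at 2-fold and 9 of 50 at 0.25, so the counts at 0.25 were near the shares of all genes. With Neo1 added to Dcc, the log2 ratio of ratios was 1.08 for Ntn1, -1.31 for Draxin and 0.32 for Unc5c and Unc5d, the last reversed, because Neo1 had more reads than Dcc and differed the other way. At this depth an interval is 0.12 wide for Robo2 and 0.79 for Slit3.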

Other observations

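Bcl11b, a transcription factor of subcortical projection neurons, had 747 reads in siPhf6 and 922 in siCtl, a log2 ratio of -0.10 (-0.24 to 0.04) with an interval that holds 0. Lhx2, a transcription factor of cortical progenitors, had 1361 and 1831 reads (-0.22, -0.33 to -0.12). Neither was past the fold.

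Nell2, a secreted ligand of Robo3, had 4181 reads (396 RPM) in siPhf6 and 4478 (368 RPM) in siCtl, a log2 ratio of 0.10 (0.04 to 0.16). Robo3, with a ratio of 2.04 (1.48 to 2.69), was under the filter with 113 and 31 reads.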
